A study of Mus musculus with 8 samples.

Results

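Secreted and membrane proteins enter the endoplasmic reticulum (ER) through the Sec61 channel, are cut by signal peptidase, fold with the help of chaperones and disulfide isomerases, and leave in vesicles coated with COPII. The genes described here are 41 members of that route, taken by gene symbol from the 24487 records of 8 mouse embryonic lung RNA libraries; each symbol had 1 record. They were handled as 3 classes. The translocon class holds 13 genes: the channel and its partners (Sec61a1, Sec61b, Sec61g, Sec62, Sec63), the SSR complex that sits beside the channel (Ssr1 to Ssr4) and subunits of signal peptidase (Sec11c, Spcs1, Spcs2, Spcs3). The chaperone class holds 15 genes and the coat class 13, the latter with the COPII coat (Sec13, Sec23a, Sec23b, Sec24a, Sec24c, Sec24d, Sec31a), its GTPases Sar1a and Sar1b, the KDEL receptors Kdelr1 to Kdelr3, which return escaped ER residents, and the cargo receptor Lman1.

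Cells that secrete heavily, such as the surfactant-making epithelium of the lung, are known for a large ER. When unfolded proteins accumulate there, membrane sensors activate the factors ATF6, XBP1 and ATF4, and chaperone genes are among their best known targets. SOX9 is a transcription factor of the growing distal tips of the lung epithelium.

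All libraries came from embryonic lung of strain C57BL/6 and carry the same treatment label, a labelling of ribosomes for TRAP (translating ribosome affinity purification) induced by tamoxifen. TRAP libraries hold the RNA that came down with ribosomes when L10, a protein of the large ribosomal subunit, was immunoprecipitated, and whole lung libraries hold total mRNA of a homogenate. Wild-type embryos gave 1 TRAP and 1 whole lung library at embryonic day 14 (E14) and the same at E17, and 2 TRAP libraries at E16. Embryos labelled Sox9-mutant gave 2 TRAP libraries at E16. The titles of the E16 libraries also name E13, which the labels do not explain, and the series' design text calls the E14 reference a supernatant where its label says homogenate. Neither the driver of the ribosome label nor the altered part of Sox9 is named, and nothing says that replicates came from separate animals, so p-values measure the spread between libraries, which may be technical.

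Sox9 itself had 35.9 and 36.4 FPKM in the wild-type E16 libraries against 12.8 and 11.0 FPKM in the mutant ones (log2 difference -1.53, adjusted p = 0.000153); it was at 63.9 and 68.5 FPKM in E14 and E17 TRAP and at 15.0 and 16.7 FPKM in whole lung. FPKM counts fragments per length of transcript and per sequenced library, so levels of different genes can be set side by side. Libraries held 9783768 to 21500523 inferred fragments. A member's value rested on 65.0 (Kdelr3) to 24866 (Calr) fragments, median 2025, which puts the counting error at 12.4% for the lowest value and 2.22% at the median. All 8 epithelial markers were higher in TRAP than in whole lung, their summed level being 1634 and 1552 FPKM against 367 and 578, and all 8 mesenchymal markers were lower, at 294 and 271 FPKM against 1343 and 1693. In the mutant 7 of 8 epithelial markers were higher (1349 and 1330 FPKM in the wild type, 2051 and 1963 in the mutant). So were all 8 markers of mucous and plasma-protein-producing cells (4.55 and 4.29 against 145 and 188 FPKM), of which Tff3 was listed at 0 in 5 of the 6 wild-type libraries, Gkn2 in 2 and Agr2 in 1. FPKM summed to 1631259 in wild-type library 1 and to between 767845 and 906098 in the other E16 libraries. Rescaling every library to a common total moved the median log2 difference of all records from 0.01 to 0.41 for the mutant, from 0.05 to -0.31 for TRAP and from 0.01 to -0.23 for stage. With records under 200 bases left out of that total, these medians were 0.07, -0.04 and -0.06. Class medians are therefore also given relative to all records.

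Chaperone genes are known for promoter elements bound by these stress factors, so the stretches of the members that match them are shown. Whether the elements bear on any difference between groups was not tested. RefSeq windows of 250 bases before to 50 after a start (GRCm38.p6, the assembly that mm10 names) were found for 33 of the 41 members; Hyou1, Kdelr2, Lman1, Manf, Sec11c, Sec61a1, Spcs3 and Ssr2 had none. They were searched on both strands for the ER stress response element (CCAAT, any 9 bases, CCACG), which ATF6 is known to bind, for its second form (ATTGG, any 1 base, CCACG), and for TGACGTGG, the core of the unfolded protein response element. The last shares the letters CGTGG with the reverse strand of the first 2, so matches can overlap. The first element was in 6 of 13 chaperone genes with a window, in none of 9 translocon genes and in none of 11 coat genes. Among all 27025 genes with a RefSeq window it was in 37 (0.137%), of which 16 were tested in the mutant fit. The 7 matches of the 6 chaperone genes follow, 5′ to 3′ on the strand of the gene with 20 bases on each side. Capitals mark the 2 outer blocks of the element; CGTGG followed by ATTGG is a match on the opposite strand.
Calr, calreticulin, chr8:84847055-84847113, minus strand: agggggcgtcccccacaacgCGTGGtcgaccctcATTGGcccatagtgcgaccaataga
Canx, calnexin, chr11:50325780-50325838, minus strand: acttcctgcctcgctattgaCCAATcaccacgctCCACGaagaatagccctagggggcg
Hsp90b1, the Hsp90 of the ER, chr10:86705618-86705676, minus strand: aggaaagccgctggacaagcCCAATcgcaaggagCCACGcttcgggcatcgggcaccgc
Hsp90b1, nearer to the start, chr10:86705513-86705571, minus strand: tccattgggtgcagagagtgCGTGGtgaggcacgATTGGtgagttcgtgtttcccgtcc
Creld2, an ER-resident protein, chr15:88819500-88819558, plus strand: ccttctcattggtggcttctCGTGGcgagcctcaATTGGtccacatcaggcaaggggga
Dnajc3, a J-domain partner of BiP, chr14:118937807-118937865, plus strand: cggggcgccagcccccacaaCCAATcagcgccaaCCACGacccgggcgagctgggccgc
Pdia6, a disulfide isomerase, chr12:17266471-17266529, plus strand: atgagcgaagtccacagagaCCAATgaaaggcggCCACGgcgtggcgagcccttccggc

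The matches began between 98 bases (Pdia6) and 212 bases (Hsp90b1) before the RefSeq start. The second form was found in 1 member, Dnajb11, and in 12 of all genes with a RefSeq window. TGACGTGG was in 3 of 11 coat genes and in 193 of all genes with a RefSeq window (0.714%), and in no gene of the other classes. In Sec23a it lay after the start. In Kdelr3 and Sec24d, a KDEL receptor and a cargo-selecting coat subunit, it began 30 and 26 bases before the start, in capitals here with up to 20 bases on each side and none past the start:
Kdelr3, chr15:79516358-79516405, plus strand, match on the opposite strand: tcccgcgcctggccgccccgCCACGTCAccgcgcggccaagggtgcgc
Sec24d, chr3:123267450-123267495, plus strand: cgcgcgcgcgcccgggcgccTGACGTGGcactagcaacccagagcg
A match is a description of letters, and a window without one says only that these letters are not there. The deposited record of 28 of the 33 members started exactly at a RefSeq start, and that of 32 within 100 bases.

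Levels of the members spanned more than the differences between groups. In the wild-type E16 libraries the lowest was Sec24a, at 2.24 and 2.30 FPKM, and the highest Sec61b, at 517 and 560 FPKM. Calreticulin (366 and 359 FPKM), Sec61g (301 and 319) and Ssr2 (265 and 257) came next, and P4hb, Pdia3, Pdia6 and Hsp90b1 lay between 199 and 237 FPKM. Among coat genes the highest was Sec13, at 84.3 and 86.6 FPKM, and Sec23a (6.49 and 6.60 FPKM), Sec24d (9.62 and 8.84) and Kdelr3 (12.4 and 14.3) stood at the low end with Sec24a. The records of Spcs1 and Pdia6 share 274 and 50 bases with Glt8d1 (mean 12.6 FPKM) and Atp6v1c2 (2.41 FPKM), whose reads could be counted with them.

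**Figure D1:**
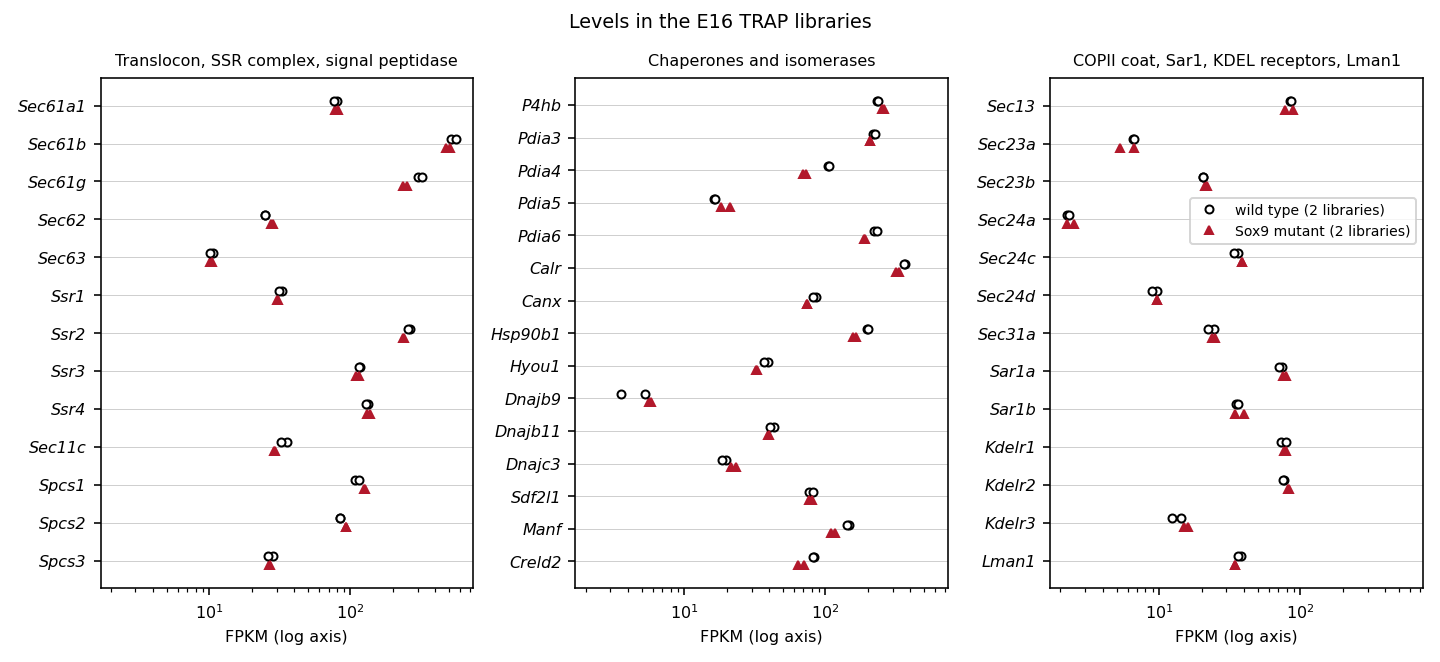
FPKM (log axis) of the 41 genes in the E16 TRAP libraries, by class; open circles are the 2 wild-type libraries and triangles the 2 Sox9 mutant libraries, 1 point a library. Levels run from about 2.24 FPKM (Sec24a) to 560 FPKM (Sec61b), and Pdia4, Manf, Hsp90b1 and Sec61g show mutant points to the left of both wild-type points.

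The first comparison set ribosome-bound RNA of labelled cells against whole lung. The translocon genes and chaperones that passed were mostly higher in TRAP, and 3 coat genes passed: 7 of 13 translocon genes were higher and 1 lower, 8 of 15 chaperones were higher and 1 lower, and 1 of 13 coat genes was higher and 2 lower. Of the 12320 records in the fit, 23.6% were called higher and 17.1% lower, or 40.7% in either direction, by limma with stage as a term and Benjamini-Hochberg adjustment at 0.05. The class medians were 0.33, 0.33 and -0.03 on the log2(FPKM + 1) scale, or 0.28, 0.28 and -0.08 relative to the median of all records. On a common total all 3 medians were below 0, at -0.05, -0.05 and -0.42, but relative to all records 0.26, 0.25 and -0.11. There 0 members were called higher and 4 lower, beside 4.38% and 24.0% of all records.

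Of the channel itself, the small subunits Sec61b and Sec61g were higher in TRAP. In TRAP Sec61b was at 520.2 FPKM (E14) and 547 (E17), and in whole lung at 291 and 325. Sec61g was at 269.8 and 308 FPKM in TRAP and at 188 and 177 in whole lung. The differences fitted in limma were 0.79 for Sec61b (SE 0.10, adjusted p = 0.00320) and 0.66 for Sec61g (SE 0.11, adjusted p = 0.00768). Sec61a1, which forms the pore, was at 99.2 and 84.9 FPKM in TRAP and at 85.6 and 78.7 in whole lung, a difference of 0.16 that did not pass (adjusted p = 0.216). Genes of the SSR complex differed in both directions. Ssr2 was at 285 and 319 FPKM in TRAP and at 151 and 185 in whole lung, the largest difference among the translocon genes (1.80-fold, log2 0.85, adjusted p = 0.00255). Ssr4 was at 93.4 against 73.2 FPKM and at 139 against 94.4 (log2 0.45, adjusted p = 0.0183). Ssr3 went the other way, at 115 against 149.5 FPKM and 123 against 149.98 (log2 -0.33, adjusted p = 0.0357), and Ssr1 differed by -0.09 (adjusted p = 0.513). Of signal peptidase, the catalytic subunit Sec11c was at 23.1 against 15.8 FPKM and 48.2 against 25.0 (log2 0.72, SE 0.13, adjusted p = 0.0103). Its partners Spcs1 and Spcs2 were 0.34 and 0.33 higher (adjusted p = 0.0413 and 0.0343), signs that turned to -0.05 each on a common total, and Spcs3 differed by -0.17 (adjusted p = 0.250). Sec62 and Sec63, which join the channel for import after translation, differed by -0.07 and -0.31 without passing.

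Among chaperones the small ER residents led. Manf, a BiP-binding protein, had 149.6 and 142 FPKM in TRAP and 83.9 and 80.4 in whole lung (1.76-fold, log2 0.82, SE 0.09, adjusted p = 0.00241). Creld2 was at 109 against 56.5 and at 89.0 against 56.4 FPKM (log2 0.79, adjusted p = 0.00463), and Sdf2l1, which works with J-domain proteins, at 96.2 against 58.0 and 79.1 against 48.4 (log2 0.71, adjusted p = 0.00386). For each of these 3 the lower TRAP value was above the higher whole lung value. That does not set them apart, as it also held for other members, among them Sec61b, Sec61g, Ssr2, Pdia5 and Hyou1. The share of all records that did so was not counted. The isomerase Pdia5 was at 18.4 FPKM in both TRAP libraries and at 12.03 and 13.1 in whole lung (log2 0.52, adjusted p = 0.0184). Hyou1, a large chaperone that assists BiP, was 0.52 higher (adjusted p = 0.0130), Pdia4 0.47, Pdia6 0.42 and Dnajb11 0.33, the last of which was -0.05 on a common total. Several abundant chaperones did not pass: Calr differed by 0.29 (adjusted p = 0.0649), Pdia3 by 0.29, P4hb by 0.08, Hsp90b1 by 0.08 and Canx by 0.02. Dnajb9, a J-domain partner of BiP at low level, was lower in TRAP at 4.90 against 8.74 FPKM and at 5.80 against 10.7 (log2 -0.75, adjusted p = 0.00972).

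In the coat class 2 genes had levels unlike those of their nearest relatives. Sec23a (chr12:58958384-59012017, mm10) was at 7.63 and 7.003 FPKM in TRAP and at 20.4 and 16.4 in whole lung (2.32-fold lower in TRAP, log2 -1.21, SE 0.13, adjusted p = 0.00209), while Sec23b, the other inner-coat subunit of that kind, was at 24.8 against 19.0 and 26.3 against 20.1 (log2 0.37, adjusted p = 0.0373; -0.00 on a common total). The ratio of Sec23a to Sec23b, which no scaling of libraries changes, was 0.308 and 0.266 in E14 and E17 TRAP and 1.07 and 0.819 in whole lung. Kdelr3 (chr15:79516408-79527739) had 4.44 and 13.0 FPKM in TRAP, and 22.0 and 23.5 in whole lung (log2 -1.44, SE 0.30, adjusted p = 0.0145). Its ratio to Kdelr2 was 0.0447 and 0.128 in TRAP and 0.215 and 0.224 in whole lung; Kdelr1 and Kdelr2 themselves differed by -0.03 and -0.04. Sec24d was at 7.70 against 11.1 and 10.8 against 13.4 FPKM (log2 -0.38, adjusted p = 0.0634), and Sec13 at 116 against 91.8 and 90.5 against 76.9 (log2 0.28, adjusted p = 0.0594). The other 6 coat genes lay between -0.27 (Sec24a) and 0.23 (Sar1b), and none passed. Markers of several cell types were also lower in TRAP: 8 of 8 mesenchymal, 6 of 6 endothelial and 4 of 4 smooth muscle genes. The same held for 5 of 5 tested leukocyte, 4 of 4 erythroid and 3 of 4 mesothelial genes. The part of these cells in the differences of Sec23a and Kdelr3 was not tested. In E16 TRAP of the wild type Sec23a over Sec23b was 0.318 and 0.323, beside the other TRAP libraries and below whole lung. Kdelr3 over Kdelr2 was 0.161 and 0.190 there, above E14 and E17 TRAP and nearer to whole lung, though below it.

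**Figure D2:**
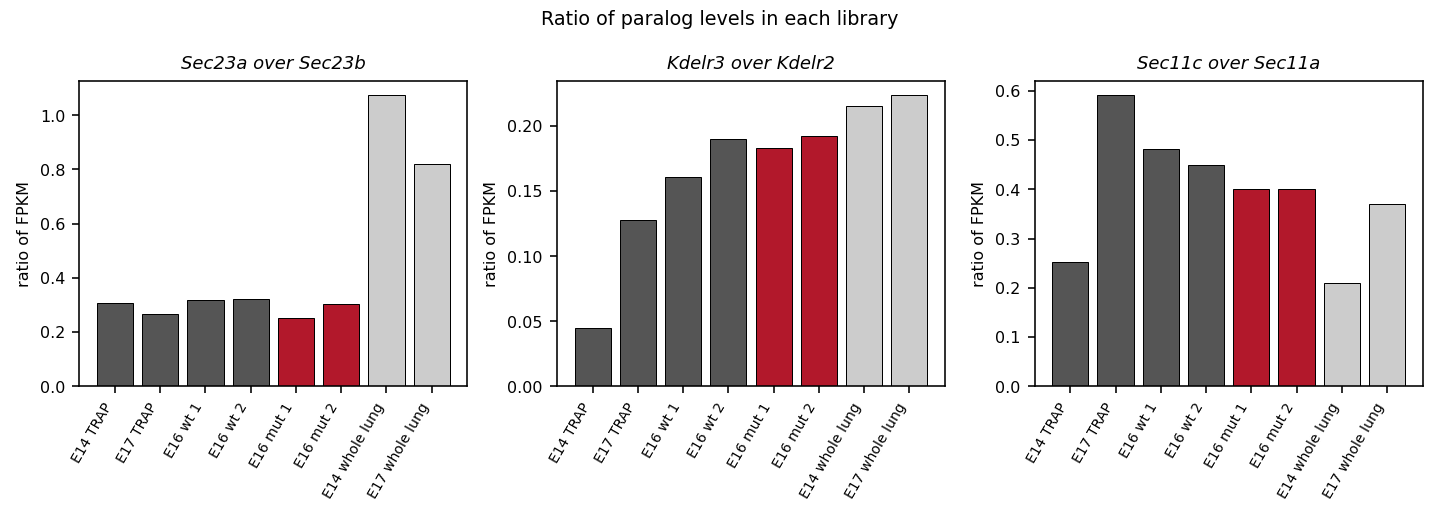
Ratio of FPKM of Sec23a to Sec23b, Kdelr3 to Kdelr2 and Sec11c to Sec11a in each library; dark bars are wild-type TRAP, red bars Sox9 mutant TRAP and light bars whole lung, 1 bar a library. The Sec23a to Sec23b ratio lies between 0.251 and 0.323 in all 6 TRAP libraries and at 1.07 and 0.819 in whole lung, and the Kdelr3 ratio is lowest in E14 TRAP (0.0447).

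With 1 library of each kind, the difference between stages can only be described. At E14 6 members were past 1.5-fold higher in TRAP and 3 lower (16.2% and 17.8% of all records), and at E17 7 and 3 (14.3% and 15% of all records). Kdelr3 differed most between stages, at -2.08 at E14 and -0.81 at E17. In a limma fit of all 8 libraries, where the E16 pairs supply the spread, that change was 1.27 (SE 0.17, adjusted p = 0.0550). The fit used the deposited scale, and the change was not fitted on a common total. No member passed in that limma fit, against 0.914% of all records; 3 members had an unadjusted p under 0.05. The Kdelr3 record shares 44 bases with Ddx17 (mean 78.0 FPKM), and the sources used here do not say whether counting used strand.

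**Figure D3:**
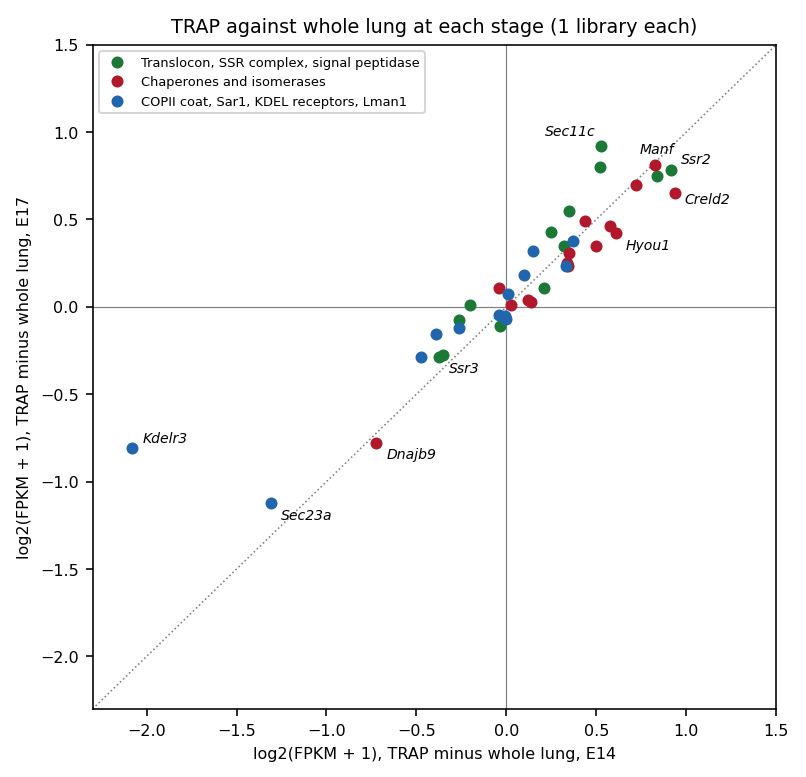
Difference between TRAP and whole lung in log2(FPKM + 1) at E14 (horizontal) and E17 (vertical) for the 41 genes, 1 library of each kind and stage, coloured by class; the dotted line marks equal differences. As deposited, most points lie near the line, and Kdelr3 (-2.08 and -0.81) lies farthest from it. On a common total all points would move left and, by more, down, so nearness to the line depends on the scaling. Summed FPKM was 738841 in TRAP and 659798 in whole lung at E14, and 1048337 and 683610 at E17.

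Other genes of the route were read from lists by role. Of 12 oligosaccharyltransferase genes, which attach glycans at the channel, 6 were higher in TRAP and 1 lower, led by Ddost (0.60) and Krtcap2 (0.61). Of 22 further COPII and cargo-receptor genes 8 were higher and 1 lower, with Tmed9 at 0.67 and the collagen-export receptor Mia3 at -0.63. Of 24 other folding genes 6 were higher and 5 lower (Fkbp2 0.54, Sil1 0.64, Fkbp7 -1.49). The counts were 1 higher and 2 lower of 13 targeting genes (Srp14 0.47, Sec61a2 -1.03), 2 and 2 of 17 degradation genes (Edem2 0.69, Selk -0.68), and 2 and 2 of 11 genes of the COPI coat, which runs back from the Golgi (Cope 0.51, Copg2 -1.77). Of 11 stress sensors and factors none was higher and 2 were lower, Creb3l1 (-1.84) and Ddit3 (-0.88). TRAP set against whole lung compares ribosome-bound with total RNA as well as labelled cells with all cells, and these cannot be told apart; nor, in bulk libraries, can fewer cells of a type and less RNA per cell.

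The second comparison set E17 against E14 as the change common to both fractions, from the same 4 libraries and the same fit as the first. Sec11c of signal peptidase and Ssr4 of the SSR complex were higher at E17, and the folding genes Pdia4 and Hyou1 were lower. The other 37 members did not pass, where 9.51% of all records were higher and 6.36% lower (15.9% in either direction). By class the counts were 2 higher and none lower of 13 translocon genes, none and 2 of 15 chaperones, and none of 13 coat genes (2 of them with an unadjusted p under 0.05 in limma). The medians were 0.12, -0.19 and -0.02, with 10 of 13 translocon genes above 0 and 11 of 15 chaperones below it. On a common total the translocon median turned to -0.16; relative to all records the 3 medians were 0.11, -0.19 and -0.03, and 0.07, -0.23 and -0.05 on a common total. Cell type markers also moved between the stages: 2 of 8 epithelial, 3 of 6 endothelial and 1 of 4 erythroid markers were higher at E17 and none of them lower, and 2 of 4 smooth muscle markers were lower. The epithelial sum went from 1634 to 1552 FPKM in TRAP and from 367 to 578 in whole lung, and the endothelial sum from 13.3 to 26.9 and from 162 to 299.5. Their part in the stage differences was not tested.

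The per-library levels are those given above. Sec11c went from 23.1 to 48.2 FPKM in TRAP and from 15.8 to 25.0 in whole lung (1.78-fold, log2 0.83, SE 0.13, adjusted p = 0.0222). Sec11a, the other catalytic subunit of signal peptidase, differed by -0.15 (adjusted p = 0.283), and the ratio of Sec11c to Sec11a was 0.253 and 0.591 in E14 and E17 TRAP, 0.481 and 0.449 in E16 wild-type TRAP, and 0.210 and 0.370 in whole lung. The ratio was thus highest in E17 TRAP and lay between the other 2 stages at E16. Ssr4 went from 93.4 to 139 FPKM in TRAP and from 73.2 to 94.4 in whole lung (log2 0.46, adjusted p = 0.0376). Ssr2 (0.23), Spcs1 (0.29, from 107 to 140.0 FPKM in TRAP and from 90.1 to 104 in whole lung) and Spcs2 (0.19, from 77.5 to 89.2 and from 61.9 to 69.8) did not pass.

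Hyou1 was the chaperone that differed most. It went from 72.0 to 48.1 FPKM in TRAP and from 46.9 to 35.6 in whole lung (log2 -0.48, SE 0.10, adjusted p = 0.0371), so that the level of E17 TRAP was close to that of E14 whole lung. Pdia4 went from 167 to 129.7 FPKM in TRAP and from 123 to 91.9 in whole lung (log2 -0.39, SE 0.09, adjusted p = 0.0441). Hsp90b1 (316 to 251 and 291 to 244 FPKM, log2 -0.29, adjusted p = 0.0875), Pdia3 (318 to 256 and 252 to 214, log2 -0.27) and Sdf2l1 (log2 -0.27) did not pass. Hspa5, which encodes BiP itself and is not among the 41, went from 369.6 to 254 FPKM in TRAP and from 286 to 216 in whole lung (log2 -0.47, adjusted p = 0.0338). In the coat class Kdelr3 differed by 0.73 (SE 0.30, adjusted p = 0.151), with 4.44 and 13.0 FPKM in TRAP and 22.0 and 23.5 in whole lung. Sec24d differed by 0.35, Sec13 by -0.30, Sec23a by -0.20 and Kdelr1 by 0.18 (75.8 to 84.4 FPKM in TRAP and 76.2 to 87.7 in whole lung), none of which passed.

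In TRAP alone 2 members, Sec11c (1.03) and Kdelr3 (1.36), were past 1.5-fold higher at E17 and none lower (11.7% and 6.1% of all records), and in whole lung 1, Sec11c (0.63), and none (11.7% and 5.67% of all records). Of the lists by role, 2 of 17 degradation genes were higher (Herpud1 0.70, Edem2 0.47), 1 of 11 COPI genes (Copz2 0.60) and 1 of 11 sensors and factors (Atf4 0.38); 1 of 13 targeting genes was lower (Sec61a2 -0.54), and of 24 other folding genes Hspa5 alone. No gene of the 12 for oligosaccharyltransferase or the 22 of COPII passed; 2 and 3 of them had an unadjusted p under 0.05. The 4 calls rest on 1 library of each kind and stage. None passed without the filter on low levels, without the trend of variance on level, or on a common total. In these settings 0.283%, 6.23% and 9.20% of all records passed in either direction.

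On the deposited scale, most members were lowest at E16 within TRAP of the wild type. Both E16 values were below both the E14 and the E17 value for 24 of 41 members, and above both for none. Of 12248 records 29.5% and 24.2% did so. The E16 values were below both in 12 of 15 chaperones, 8 of 13 coat genes and 4 of 13 translocon genes. These counts were not repeated on a common total. Summed FPKM was 738841 at E14, 1631259 and 808402 at E16 and 1048337 at E17, so the counts depend on the scaling. Calr was at 584 FPKM at E14, 366 and 359 at E16 and 477 at E17, and Hsp90b1 at 316, 199 and 201, and 251. The chaperone class summed to 2656 FPKM at E14, 1855 and 1864 at E16 and 2221 at E17. Within a library, the ratio of the chaperone sum to the translocon sum, which scaling does not touch, was 1.57 at E14, 1.07 and 1.05 at E16 and 1.17 at E17; in whole lung it was 1.70 at E14 and 1.40 at E17. Manf and Sec61g were not lowest at E16: Manf was at 149.6, 148 and 143, and 142 FPKM, and Sec61g at 269.8, 301 and 319, and 308. The E16 libraries also differed from the others in red-cell transcripts, with a summed erythroid level of 154 and 137 FPKM against 1762 and 2069 in E14 and E17 TRAP. Stage and the set of libraries cannot be told apart here.

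**Figure D4:**
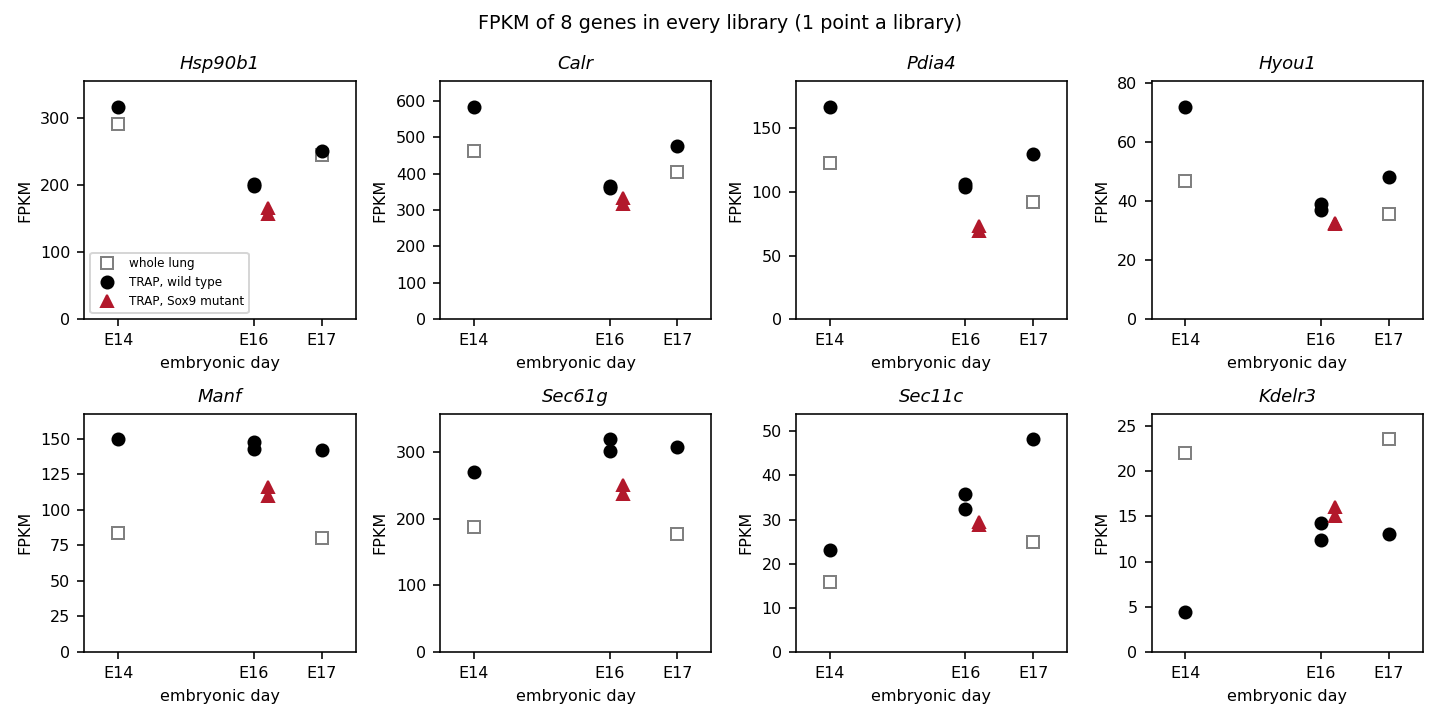
FPKM of 8 genes against embryonic day, 1 point a library; squares are whole lung, circles wild-type TRAP and triangles Sox9 mutant TRAP at E16 (set slightly to the right). As deposited, Hsp90b1, Calr, Pdia4 and Hyou1 are lower in TRAP at E16 than at E14 and E17, which depends on the scaling of libraries. Sec11c in TRAP runs from 23.1 FPKM at E14 to 48.2 at E17, and Kdelr3 is lowest in E14 TRAP (4.44 FPKM).

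The third comparison set the Sox9 mutant against the wild type in E16 TRAP, 2 libraries each. Chaperones made up 7 of the 8 members that were lower in the mutant: Pdia4, Manf, Hsp90b1, Creld2, Pdia6, Hyou1 and Canx, with log2 differences from -0.55 to -0.18. The remaining one was Sec61g, and 1 member, Spcs2, was higher. So 7 of 15 chaperones, 1 of 13 translocon genes and none of 13 coat genes were lower, where 14.3% of 11872 records were lower and 17.4% higher (31.6% in either direction). The medians were -0.16 for chaperones, -0.02 for the translocon class and 0.05 for the coat, and relative to all records -0.17, -0.03 and 0.05. On a common total the chaperone median turned to 0.30 while staying 0.11 below that of all records. There 7 of the 8 lower genes turned positive, Pdia4 at -0.10 being the exception. No member passed there, beside 1.41% of all records higher and 0.482% lower. With records under 200 bases left out of that total, the chaperone median was -0.09, and -0.16 relative to all records. Of the 9 calls 7 were then kept, Canx and Hyou1 being lost. In that setting 9 members were higher and 6 lower, beside 23.0% and 10.7% of all records.

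Pdia4, an isomerase with an extra thioredoxin-like domain, differed most (chr6:47796141-47813512). Its wild-type levels were 104 and 106 FPKM and its mutant levels 73.0 and 69.7 (1.47-fold, log2 -0.55, SE 0.05, adjusted p = 0.000820). Manf (chr9:106887415-106891938) was at 148 and 143 against 109.7 and 116 FPKM (log2 -0.36, SE 0.05, adjusted p = 0.00462), and Hsp90b1 at 199 and 201 against 165 and 157 (log2 -0.31, SE 0.05, adjusted p = 0.00615). Creld2 was at 82.9 and 81.2 against 64.1 and 71.0 FPKM (log2 -0.28, SE 0.06, adjusted p = 0.0213). Both mutant values were below both wild-type values in each of these 4, as in 10 of 15 chaperones and 33.3% of all records. Pdia6 (222 and 232 against 192 and 186 FPKM), Hyou1 (39.1 and 36.8 against 32.4 and 32.5) and Canx (85.3 and 82.3 against 73.8 and 73.6) were 0.26, 0.22 and 0.18 lower, with adjusted p = 0.0117, 0.0286 and 0.0319. Calr, the most abundant, was at 366 and 359 against 332 and 316 FPKM and missed the threshold (log2 -0.16, adjusted p = 0.0545). Hspa5 was close to it as well, at 179 and 194 against 167 and 157 FPKM (log2 -0.20, adjusted p = 0.0554).

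Not every folding gene was on the low side. The J-domain partners of BiP differed among themselves: Dnajb9 was at 3.56 and 5.30 against 5.61 and 5.84 FPKM (log2 0.33, SE 0.16, adjusted p = 0.168), Dnajc3 at 19.7 and 18.5 against 23.4 and 21.5 (log2 0.22, adjusted p = 0.0564), and Dnajb11 differed by -0.10. Pdia5 was at 16.3 and 16.5 against 21.0 and 18.3 FPKM (log2 0.24, adjusted p = 0.0636) and P4hb at 232 and 237 against 262 and 252 (log2 0.13, adjusted p = 0.0854). Sdf2l1 differed by -0.00 and Pdia3 by -0.08. In all, 10 of 15 chaperones had both mutant values below both wild-type values and 4 had both above, where 33.3% and 36.8% of all records did. Of the 6 chaperones whose window holds the ER stress response element 4 were lower (median -0.22, from -0.31 in Hsp90b1 to 0.22 in Dnajc3), and of the 7 whose window does not 1 was lower, Pdia4 (median -0.00). Hyou1 and Manf, both lower, had no window. In TRAP against whole lung 2 of the 6 with the element were higher (median 0.18). Of the 7 without it 4 were higher and 1 lower (median 0.33). By stage none of the 6 was called and 1 of the 7 was lower (medians -0.21 and -0.09). Outside the members the element was in 10 genes tested in the mutant fit, of which none was lower in limma and 1, Zfp57, higher (0.91). At an unadjusted p under 0.05, 2 were lower and 2 higher.

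In the translocon class Sec61g (chr11:16501638-16508484) had wild-type levels of 301 and 319 FPKM and mutant levels of 251 and 237 (log2 -0.35, SE 0.06, adjusted p = 0.00674). The other small subunit, Sec61b, differed by -0.13 (adjusted p = 0.152) and the pore subunit Sec61a1 by 0.03 (adjusted p = 0.669). The signal peptidase genes differed in both directions. Spcs2 was at 83.9 and 84.4 against 93.7 FPKM in both mutant libraries (log2 0.15, SE 0.04, adjusted p = 0.0454), and Spcs1 at 107 and 115 against 125 and 127 (log2 0.17, adjusted p = 0.0531). Sec11c was at 35.8 and 32.3 against 28.7 and 29.4 FPKM (log2 -0.22, adjusted p = 0.0510), and Spcs3 differed by -0.02. Sec62 was at 25.0 FPKM in both wild-type libraries and at 27.3 and 28.0 in the mutant (log2 0.14, adjusted p = 0.0877). The 4 SSR genes lay between -0.13 (Ssr2) and 0.04 (Ssr4), and none passed.

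No coat gene passed in limma, and 3 had an unadjusted p under 0.05; 10 of 13 had positive differences. Kdelr3 was at 12.4 and 14.3 against 15.1 and 16.003 FPKM (log2 0.21, SE 0.08, adjusted p = 0.108). Sec24c was at 36.2 and 34.1 against 38.9 FPKM in both mutant libraries (log2 0.14, adjusted p = 0.0939), and Kdelr2 at 77.3 and 75.1 against 82.4 and 83.3 (log2 0.12, adjusted p = 0.102). Sec23a was at 6.49 and 6.60 against 5.29 and 6.69 FPKM (log2 -0.12, SE 0.11, adjusted p = 0.454) and Sar1a at 74.9 and 70.6 against 75.4 and 79.9 (log2 0.09). The other 8 lay between -0.09 (Lman1) and 0.07 (Sec23b). Both mutant values were above both wild-type values in 5 coat genes and below in 1, shares of 38.5% and 7.69% beside 36.8% and 33.3% of all records. Within a library, the sum of the chaperone class over that of the coat was 3.75 and 3.78 in the wild type and 3.37 and 3.13 in the mutant, and over that of the translocon class 1.07 and 1.05 against 1.03 and 0.992. The translocon sum over that of the coat was 3.51 and 3.61 in the wild type and 3.27 and 3.15 in the mutant. All 3 ratios were lower in each mutant library than in each wild-type library, whatever the scaling. The ratio of chaperones to coat is the product of the other 2, so it is no separate observation. Sums also weigh abundant genes most, and the median difference of the translocon class was -0.02. An exact permutation test of 2 libraries against 2 cannot go below p = 0.333.

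**Figure D5:**
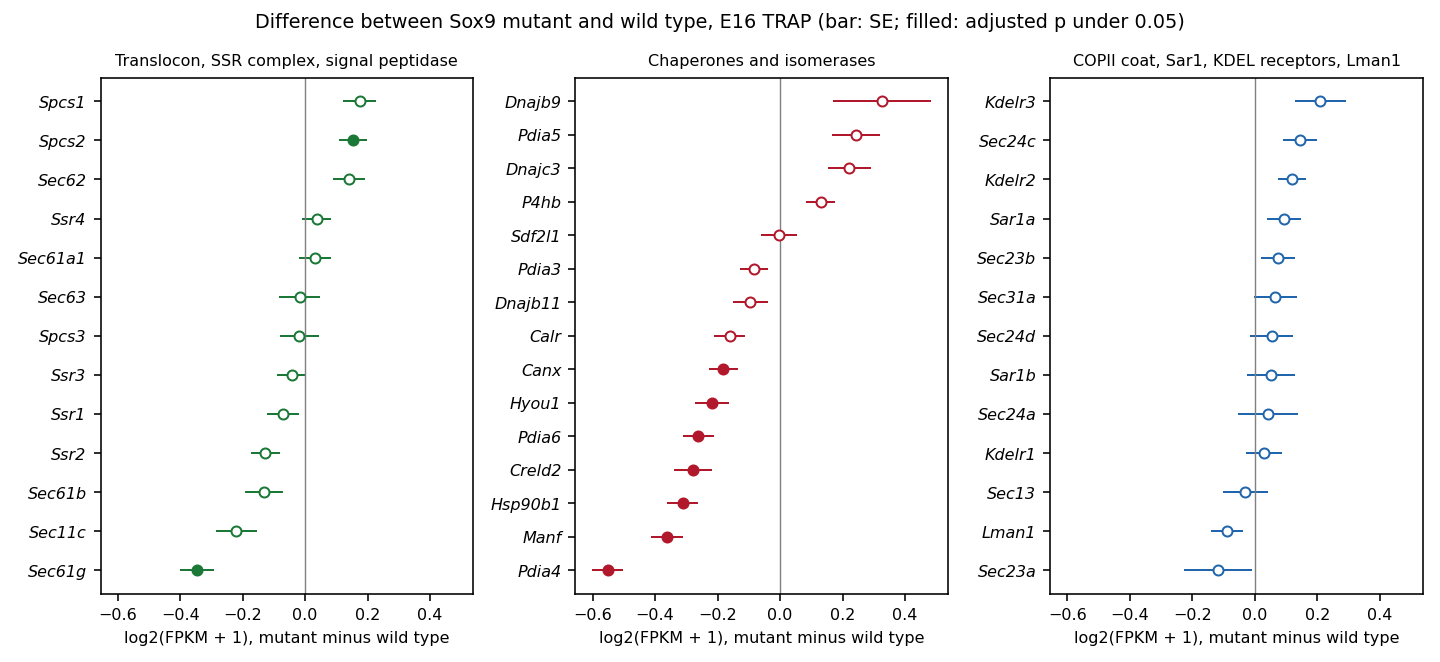
Difference in log2(FPKM + 1) between Sox9 mutant and wild type in E16 TRAP (2 libraries each) for the 41 genes, by class and in order of size; bars are standard errors, and filled points have an adjusted p under 0.05. Chaperones run from -0.55 (Pdia4) to 0.33 (Dnajb9) and the coat from -0.12 to 0.21 as deposited. On a common total all points would shift up together and 7 of the 8 filled points below 0 would lie above it. With records under 200 bases left out of that total, the chaperone median would be -0.09.

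Among the lists by role, 4 of 12 oligosaccharyltransferase genes were lower and none higher (Krtcap2 -0.28, Rpn1 -0.22, Ddost -0.20). Of 24 other folding genes 3 were higher and 3 lower, with Fkbp11, a prolyl isomerase, at -1.01, Fkbp9 at -0.48 and Txndc5 at 0.33. Of 11 stress sensors and factors 5 were higher and none lower. The largest was Creb3l1, a membrane-bound transcription factor of the ER, with 7.25 and 7.53 FPKM in wild-type and 82.3 and 81.7 in mutant libraries (log2 3.31, SE 0.05, adjusted p = 1.34e-05); Creb3l4 and Creb3 were 0.52 and 0.53 higher. Xbp1 differed by -0.04 (adjusted p = 0.573). The counts were 1 higher and 2 lower of 13 targeting genes (Srpr 0.33, Srp9 -0.26), 1 and none of 22 COPII genes (Sec24b 0.20), and 2 and 2 of 11 COPI genes (Copz2 0.40, Copg2 -0.44).

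Cell type markers also differed between mutant and wild type, in both directions. The epithelial sum was higher in both mutant libraries, and the mucous and plasma-protein sum went from under 4.56 FPKM to 145 and 188. The mesenchymal sum was lower, at 165 and 219 FPKM in the mutant libraries against 260.0 and 325; 7 of its 8 genes had negative differences, and 2 were called lower and 1 higher. Their part in the chaperone differences was not tested. Without wild-type library 2, Pdia4 and Manf kept an adjusted p under 0.05, and the other 6 lower members did not, with differences from -0.31 (Sec61g) to -0.21 (Canx) and adjusted p from 0.0512 to 0.108; without wild-type library 1, the calls of Canx, Hyou1, Creld2 and Spcs2 were lost, and without either mutant library Canx, Hyou1 and Spcs2 were.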

How the data were processed

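Each deposited table holds, per the file headers, the FPKM of every record in 1 library with a lower and an upper bound. Alignment to mm10 used Bowtie2 2.2.3 within TopHat2 2.0.14, and the authors' FPKM values came from Cufflinks 2.2.1 with Cuffnorm, as the submitters' processing notes list them. The sources used here do not say how Cuffnorm set the totals. Fragments behind a value were inferred from the deposited bounds, and intervals cover counting error only.

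Differences were fitted on log2(FPKM + 1) across all records whose mean over the libraries of the fit reached 1 FPKM. The fits used limma 3.58.1 in R 4.3.3 (moderated test with a trend of variance on level, two-sided, Benjamini-Hochberg over all records, threshold 0.05). They were first tried on simulated data that held no difference in scaling between libraries, which cannot show how calls depend on scaling. A fold on the log2(FPKM + 1) scale understates the change of low genes. All 41 members passed the filter. The mutant fit used the 4 E16 libraries; TRAP and stage came from 1 additive fit of the other 4, whose spread is the disagreement between them. Single-library differences were counted past 1.5-fold with no test. In each class the 5 members with the largest difference are given by library, and of each list by role up to 3 genes with the smallest p. The members and lists were chosen with earlier results of these data known. Alternatives were other pseudocounts, filters and scalings, no trend, each E16 library left out, a replicate block, and all 8 libraries in one fit; the interaction was added after seeing the data. Protein sequences were not used here, and the mutant result of the degradation list is not reported here.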

Additional observations from a re-analysis of the deposited data

Results flagged for a closer look

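For 2 members the difference between TRAP and whole lung had opposite signs at E14 and E17, with 1 library of each kind. Ssr1 was at -0.20 at E14 and 0.010 at E17, and Dnajc3 at -0.040 and 0.11, on the log2(FPKM + 1) scale. The single libraries give no test of the change; in the fit of all 8 libraries, added after seeing the data, it was 0.21 for Ssr1 (adjusted p = 0.302) and 0.15 for Dnajc3 (adjusted p = 0.586).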

How the results depend on the processing

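For the mutant (1 higher, 8 lower as reported), a filter of 5 FPKM gave 2 higher and 9 lower, beside 18.3% and 16.4% of all records. A common total gave 0 and 0, with 0 unadjusted p under 0.05, beside 1.41% and 0.482% of all records. Without records under 200 bases in the total there were 9 and 6 (23.0% and 10.7% of all records). Median centring gave 0 and 11 (14.7% and 19.7%), and no trend 0 and 6 (16.4% and 11.9%). With 1 library left out, the chaperone median relative to all records lay between -0.20 and -0.12 (-0.17 as reported). On a common total Sec61g was at 0.11, Pdia6 0.20, Canx 0.27, Hsp90b1 0.15, Hyou1 0.23, Manf 0.10 and Creld2 0.18. Higher genes were 54.9% of all calls as reported, 74.6% on a common total, 68.3% without short records in it and 42.8% with median centring.

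For TRAP (16 higher, 4 lower), no filter gave 13 and 2, a common total 0 and 4 (0 and 6 by unadjusted p), no trend 10 and 3, and all 8 libraries in one fit 21 and 8; on a common total Spcs1 and Spcs2 were at -0.051 each, Dnajb11 at -0.054 and Sec23b at -0.0011, and higher genes were 15.5% of all calls against 58.0%. For stage (2 and 2), a pseudocount of 0.1 gave 2 and 1, beside 8.10% and 4.98% of all records. A pseudocount of 5 gave 1 and 0 (6.54% and 3.89%), and no filter 0 and 0 (0.267% and 0.0163%). A filter of 5 FPKM gave 2 and 1 (9.17% and 6.69%), and a common total 0 and 0 (4.22% and 4.98%). The total without short records gave 2 and 8 (9.50% and 11.6%). No trend gave 0 and 0 (4.81% and 1.43%), and all 8 libraries 8 and 10 (25.5% and 23.2%). Higher genes were 59.9% of all calls as reported, 45.9% on a common total and 45.1% without short records in it. At 2-fold in place of 1.5-fold, TRAP had 0 members higher at E14 (6.01% of all records). At E17 it had 0 higher and 1 lower (4.83% and 8.91% of all records). Whole lung had 0 members higher at E17 than at E14 (4.67%). With median centring 1 member was past 1.5-fold lower in E17 TRAP than in E14 TRAP (7.74%). The causes of these changes were not tested.

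Libraries of the same number share only a number. With a replicate block 1 member was higher and 7 lower in the mutant, beside 16.2% and 13.3% of all records. Canx and Spcs2 were lost there. The deviations of same-numbered libraries from their group means correlated at 0.0072 over 11872 records. Leaving out a library was not possible for TRAP or stage, with 1 of each kind. Sec23a and Dnajb9 were lower in TRAP under all 9 alternatives run.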
